A study of Mus musculus with 4 samples.

Results

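A set of 30 mouse genes that red cell precursors use was examined in marrow cells that had been sorted by a gate holding the long-term haematopoietic stem cells. The set holds erythroid transcription factors, receptors, enzymes of haem synthesis and proteins of the red cell membrane. It was chosen by name with earlier results of these data known, so its values beside those of all genes are descriptions. A gene was represented by its brightest probe set (a group of array probes read as 1 value) among those annotated to exactly 1 gene, and 28 of the 30 had a value, of 22180 genes in all. The probe set of Alas2, the first enzyme of erythroid haem synthesis, also listed another gene, and no probe set listed Ahsp, a chaperone of alpha-globin, so these members were not analysed here. RNA was hybridised to 4 Affymetrix mouse gene ST arrays, with 1 array per genotype. The genotypes were the Fancd2 and Foxo3a double knockout (DKO), the Fancd2 knockout (Fancd2KO), the Foxo3a knockout (Foxo3aKO) and wild type (WT). All mice were 2 months old, and all cells were mononuclear marrow cells negative for lineage antigens and CD34 and positive for Sca-1 and c-Kit. The title of each sample also carries the label SLAM. The knockout alleles, strain, sex, and number of mice or cells behind an array are not stated in the sources used here. With 1 array per genotype there was no replicate check, so no test between genotypes, p-value or standard error is given. A difference between genotypes below is a difference between single arrays.

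Fancd2 acts in the repair of crosslinked DNA by the Fanconi anaemia pathway. Foxo3a, a forkhead factor, is known to keep stem cells quiescent and to protect red cell precursors from oxidative stress. Fancd2 signal was 5.84 on the DKO array, 6.08 on the Fancd2KO array, 6.67 on the Foxo3aKO array and 6.56 log2 on the WT array. Foxo3 signal was 6.51, 6.72, 6.64 and 6.62 log2 on the same arrays, so Foxo3 was not lower on the Foxo3aKO array. The exons under either probe set were not known, and the Foxo3a labels were therefore not checked by the signal. Array medians ran from 5.27 to 5.34 log2 over 41345 probe sets, and Pearson correlations between arrays over these probe sets ran from 0.965 to 0.969. Stem cell markers had a median over 10 measured genes of 8.40 in DKO, 8.58 in Fancd2KO, 8.29 in Foxo3aKO and 8.23 log2 in WT. Of them, Slamf1, a surface marker of stem cells, was 1.11 log2 higher in Fancd2KO than in WT, and no other was 2-fold apart from WT on any array. Cd34 signal was 10.36 in DKO, 10.28 in Fancd2KO, 9.67 in Foxo3aKO and 10.79 log2 in WT, although the gate selected against the CD34 protein.

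Red cells arise from multipotent cells through erythroid progenitors in which GATA1, with its cofactor FOG1, and KLF1 switch on the genes of haemoglobin, haem and the red cell membrane. Haem is assembled from glycine and succinyl-CoA in a chain of enzymes that begins and ends in the mitochondrion, and the iron it holds enters through the transferrin receptor. Stem cells are not red cell precursors, and such genes are known to be weakly active in the multipotent cells of the marrow. On these arrays the brightest probe sets of adult alpha- and beta-globin genes nonetheless had signals from 11.59 to 12.59 log2. In bulk RNA, fewer cells of a type and less RNA per cell cannot be told apart.

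The promoters of 4 members are printed as examples of how the arrays were ordered. Other members, such as Tfrc, followed neither order. Ermap and Rhag were lower on both single knockout arrays than on WT and higher on the DKO array than on either. Klf1 and Hemgn, also below WT on both, were not higher on the DKO array than on the Fancd2KO array. They differed from each other, since Klf1 was lower in DKO than on both single knockout arrays. For Hemgn, the log2 difference was -0.08 for DKO minus Fancd2KO and 0.36 for DKO minus Foxo3aKO. Each sequence runs 5′ to 3′ on the gene's strand, from 250 bases before to 50 bases after the annotated start, from RefSeq with build GRCm38.p6. Ermap lies at chr4:119189946-119190245 on the minus strand, Rhag at chr17:40810899-40811198 on the plus strand, Klf1 at chr8:84901732-84902031 on the plus strand and Hemgn at chr4:46404134-46404433 on the minus strand. Capitals mark matches on either strand to the GATA motif (AGATAA or TGATAA, read TTATCT or TTATCA on the other strand) and to the CACCC box, the letters KLF1 is known to bind (CACCC, read GGGTG on the other strand).
Ermap: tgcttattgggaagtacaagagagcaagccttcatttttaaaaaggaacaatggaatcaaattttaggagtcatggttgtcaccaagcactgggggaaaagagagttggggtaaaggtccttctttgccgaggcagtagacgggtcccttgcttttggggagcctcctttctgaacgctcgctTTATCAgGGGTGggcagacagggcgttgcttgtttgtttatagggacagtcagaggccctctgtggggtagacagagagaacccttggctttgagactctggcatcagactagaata
Rhag: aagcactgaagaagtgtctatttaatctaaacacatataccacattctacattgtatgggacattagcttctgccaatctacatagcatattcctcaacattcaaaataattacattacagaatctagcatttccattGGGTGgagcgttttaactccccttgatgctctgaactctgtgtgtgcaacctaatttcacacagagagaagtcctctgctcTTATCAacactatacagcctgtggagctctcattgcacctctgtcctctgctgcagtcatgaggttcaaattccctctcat
Klf1: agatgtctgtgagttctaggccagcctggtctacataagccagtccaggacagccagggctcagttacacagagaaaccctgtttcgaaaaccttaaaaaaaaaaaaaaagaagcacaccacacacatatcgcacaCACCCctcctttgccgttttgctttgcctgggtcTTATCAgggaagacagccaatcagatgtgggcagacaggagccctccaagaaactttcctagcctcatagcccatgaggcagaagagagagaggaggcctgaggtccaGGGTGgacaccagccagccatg
Hemgn: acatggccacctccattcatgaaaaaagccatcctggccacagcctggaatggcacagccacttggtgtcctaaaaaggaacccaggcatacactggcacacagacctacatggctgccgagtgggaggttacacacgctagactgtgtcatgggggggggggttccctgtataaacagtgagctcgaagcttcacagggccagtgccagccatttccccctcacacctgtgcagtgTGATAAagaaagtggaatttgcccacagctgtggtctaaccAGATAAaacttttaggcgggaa
No GATA match overlapped a CACCC match in these 4 windows. Hemgn held 2 GATA matches and no CACCC match in its window, and each of the others held 1 GATA match. Of the 30 members, 23 had a promoter in the table, in 27 windows. The GATA letters were found in 13 of these windows (48.1%) and in 18.6% of all 32851 promoter windows. The CACCC letters were found in 21 of them (77.8%) and in 57.5% of all windows. A match describes letters in a window and not a bound site.

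Across the list, members tended to be lower on the single knockout arrays than on WT, while on the DKO array they lay on both sides of WT. The median log2 difference of the 28 members was 0.02 for DKO minus WT, -0.30 for Fancd2KO minus WT and -0.43 for Foxo3aKO minus WT, where the medians of all 22180 genes were 0.02, 0.00 and -0.01. Of the 28 members, 12 were below WT in DKO (46.9% of all genes), 24 in Fancd2KO (50% of all genes) and 26 in Foxo3aKO (51% of all genes). These 3 comparisons share the WT array. The summed log2 signal of the 28 members was 196.9 on the DKO array, 185.4 on the Fancd2KO array, 181.6 on the Foxo3aKO array and 194.8 on the WT array.

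Members past a fixed size against WT were all lower on the single knockout arrays and went both ways in DKO. In Fancd2KO, 1 of 28 members was at least 2-fold lower than in WT (1.01% of all genes) and 6 were at least 1.5-fold lower (5.13% of all genes), and 0 were at least 1.5-fold higher (4.77%). In Foxo3aKO, 4 members were at least 2-fold lower than in WT (0.902% of all genes) and 11 at least 1.5-fold lower (5.39%), and 0 were at least 1.5-fold higher (5.07%). The DKO array had 1 member at least 2-fold higher than WT (0.987% of all genes), 5 at least 1.5-fold higher (4.95%) and 3 at least 1.5-fold lower (4.93%). The 5 were Car1, Epor, Fech, Rhag and Tspo2, and the 3 were Hemgn, Klf1 and Ppox. Against the Fancd2KO array, DKO had 3 members at least 2-fold higher (1.04% of all genes) and 9 at least 1.5-fold higher (4.96%), with 0 at least 1.5-fold lower (4.74%). Against the Foxo3aKO array, DKO had 4 members at least 2-fold higher (0.825% of all genes) and 12 at least 1.5-fold higher (4.98%), with 0 at least 1.5-fold lower (5.18%). As a scale for technical error, both probe sets of 968 genes that have a pair of them were compared. Their differences from WT disagreed with an SD of 0.50 log2 in DKO, 0.48 in Fancd2KO and 0.47 in Foxo3aKO, and the disagreement exceeded 0.94, 0.91 and 0.94 log2 in 5% of these genes. Most single differences described here lie within that range, which holds no variation between mice or between cell sorts.

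**Figure D1:**
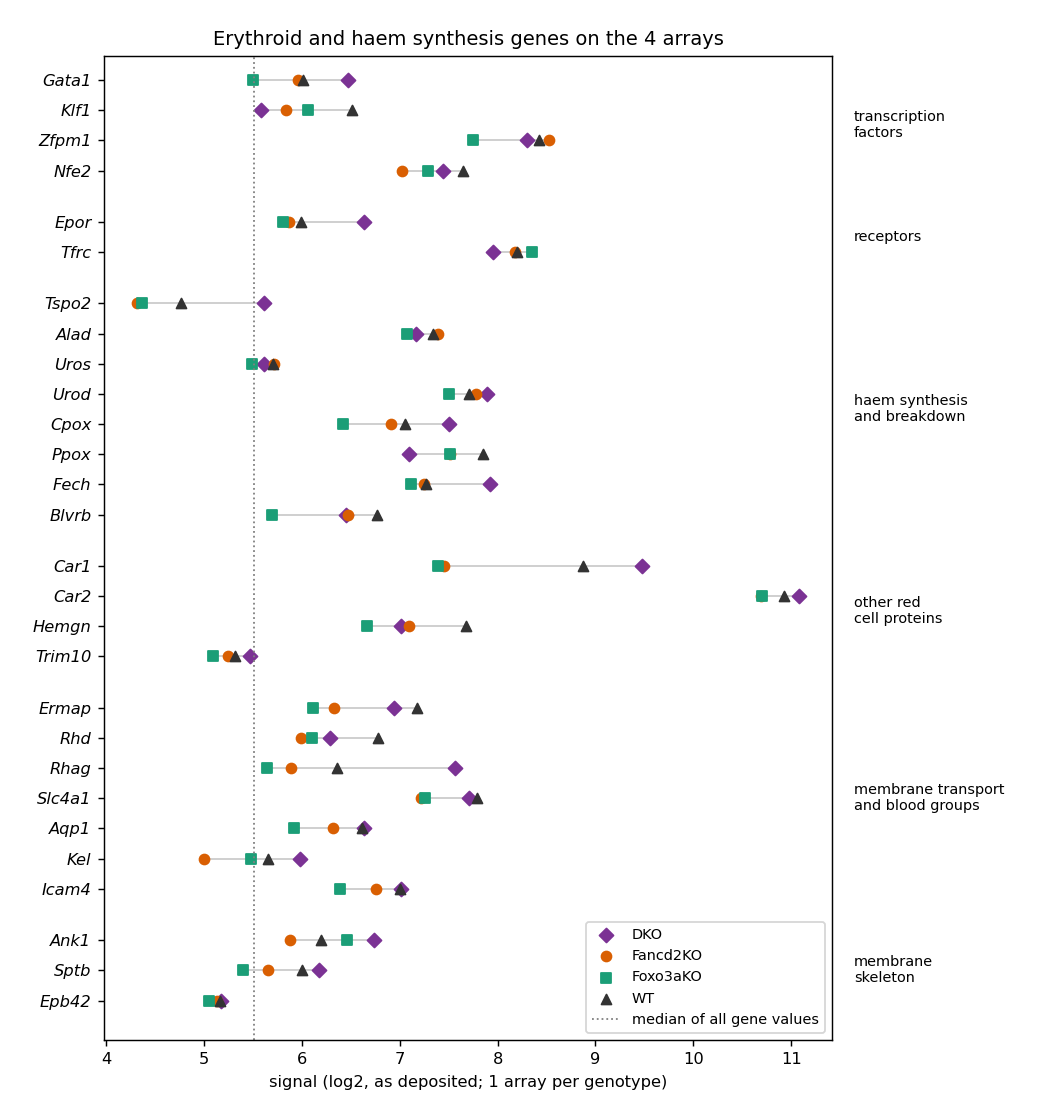
Deposited log2 signal (horizontal axis) of the 28 measured genes on the DKO (diamond), Fancd2KO (circle), Foxo3aKO (square) and WT (triangle) arrays, grouped by role, with 1 array per genotype and no error bars. The dotted line is the median of all gene values, 5.51 log2. Car1, Rhag and Tspo2 spread most, with DKO at the right end, while Klf1 and Ppox have DKO at the left end.

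The 4 transcription factors did not move as a block. Klf1, the Krüppel-like factor that activates adult globin genes, had 5.59 log2 in DKO, 5.84 in Fancd2KO and 6.06 in Foxo3aKO, against 6.51 in WT. Its DKO signal was the lowest of the 4, a log2 difference of -0.93 from WT, and was not above either single knockout. Nfe2, the erythroid subunit of the NF-E2 factor, had 7.44 log2 in DKO, 7.02 in Fancd2KO and 7.29 in Foxo3aKO, against 7.64 in WT. Here Fancd2KO was lowest, 0.62 log2 under WT. Zfpm1, which encodes the GATA1 cofactor FOG1, had 8.30 log2 in DKO, 8.53 in Fancd2KO and 7.75 in Foxo3aKO, against 8.42 in WT, so that Foxo3aKO alone stood apart (-0.67). Gata1, the master factor of the lineage, ran from 5.51 log2 in Foxo3aKO to 6.48 in DKO. Its WT signal was 6.01, and its log2 difference for DKO minus Foxo3aKO was 0.97.

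The receptors differed from each other. Epor, the receptor for erythropoietin, had 6.63 log2 in DKO, 5.87 in Fancd2KO and 5.80 in Foxo3aKO, against 5.99 in WT. The DKO signal was higher than the other arrays, by 0.77 over Fancd2KO, 0.83 over Foxo3aKO and 0.64 over WT. Tfrc, which brings in transferrin-bound iron, ran the other way over a narrow range, from 7.95 log2 in DKO to 8.35 in Foxo3aKO.

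Enzymes of haem synthesis split along the pathway. The early, cytosolic steps varied little: Alad, which forms porphobilinogen, spanned 0.32 log2 over the 4 arrays, Uros, which closes the uroporphyrinogen ring, spanned 0.22, and Urod, which decarboxylates that ring, spanned 0.39. Cpox, the coproporphyrinogen oxidase that follows, had 7.50 log2 in DKO, 6.92 in Fancd2KO and 6.42 in Foxo3aKO, against 7.05 in WT. DKO was 1.08 above Foxo3aKO, and Foxo3aKO was 0.63 below WT. Ppox, the next oxidase, went against this pattern, with 7.10 log2 in DKO, 7.51 in Fancd2KO and 7.51 in Foxo3aKO, against 7.85 in WT. Its DKO signal was the lowest, a log2 difference of -0.75 from WT. Fech, the ferrochelatase that inserts iron into protoporphyrin, had 7.93 log2 in DKO, 7.25 in Fancd2KO and 7.11 in Foxo3aKO, against 7.27 in WT. Only the DKO array stood apart for Fech, by 0.66 from WT.

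Outside the enzymes of synthesis, Tspo2, an erythroid member of the translocator protein family, had 5.62 log2 in DKO, 4.32 in Fancd2KO and 4.36 in Foxo3aKO, against 4.77 in WT. Only the DKO signal reached the median of all gene values. With signals under that median raised to it, the DKO array was 0.11 above each of the others, where it had been 1.30 above Fancd2KO, 1.25 above Foxo3aKO and 0.85 above WT, so the size rests on dim signals. Blvrb, a biliverdin and flavin reductase abundant in red cells, had 6.45 log2 in DKO, 6.47 in Fancd2KO and 5.70 in Foxo3aKO, against 6.76 in WT. Foxo3aKO was the low array, 1.07 log2 under WT, a 2.10-fold difference.

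Car1 showed the widest spread of the 28 measured members. Car1 encodes a cytosolic carbonic anhydrase that is a classical marker of erythroid progenitors, and its signal was 9.48 log2 in DKO, 7.45 in Fancd2KO and 7.39 in Foxo3aKO, against 8.87 in WT. The single knockout arrays lay 2.68-fold (Fancd2KO) and 2.80-fold (Foxo3aKO) below WT, whereas DKO lay 1.52-fold above WT. DKO was 4.08-fold above Fancd2KO and 4.25-fold above Foxo3aKO. The related carbonic anhydrase gene Car2, also used by other cells, also had DKO highest and both single knockouts below WT, in a far narrower span, from 10.69 log2 in Fancd2KO to 11.08 in DKO. Hemgn, a nuclear protein of blood progenitors, had 7.02 log2 in DKO, 7.10 in Fancd2KO and 6.66 in Foxo3aKO, against 7.68 in WT. All 3 knockout arrays were below WT for Hemgn, and DKO was close to Fancd2KO (-0.08). Trim10, needed for terminal red cell maturation, lay under the median of all gene values on every array and spanned 0.37 log2.

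Genes of membrane transport and blood group proteins had lower signals on both single knockout arrays than on WT. The role groups were drawn up after the values had been seen, so their counts are descriptions. Of the 7 genes, 7 were above Fancd2KO (52.3% of all genes) and 7 above Foxo3aKO (55.3%) in the DKO array, with median log2 differences of 0.49 and 0.62. Against WT, 4 of the 7 were higher in DKO (median 0.01, 53% of all genes), 0 in Fancd2KO (median -0.57, 49.8%) and 0 in Foxo3aKO (median -0.67, 48.9%). Rhag, the glycoprotein that carries the Rh complex to the membrane, had 7.56 log2 in DKO, 5.89 in Fancd2KO and 5.65 in Foxo3aKO, against 6.36 in WT. Its DKO signal was 2.31-fold above WT, 3.19-fold above Fancd2KO and 3.78-fold above Foxo3aKO. Rhd, the Rh antigen protein that assembles with it, did not share the high DKO signal, with 6.29 log2 in DKO, 6.00 in Fancd2KO and 6.10 in Foxo3aKO, against 6.78 in WT. Ermap, a receptor-like protein of the erythroblast surface, had 6.94 log2 in DKO, 6.33 in Fancd2KO and 6.12 in Foxo3aKO, against 7.18 in WT. Its single knockout signals were 1.81-fold (Fancd2KO) and 2.08-fold (Foxo3aKO) below WT, and DKO was 1.18-fold below.

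Among the remaining membrane genes, Kel, a blood group protein with endopeptidase activity, had 5.99 log2 in DKO, 5.01 in Fancd2KO and 5.48 in Foxo3aKO, against 5.66 in WT. Fancd2KO was lowest for Kel, with a log2 difference from WT of -0.65, or -0.15 with dim signals raised to 5.51. The adhesion protein gene Icam4 had 7.01 log2 in DKO, 6.76 in Fancd2KO and 6.39 in Foxo3aKO, against 7.01 in WT. Aqp1, a water channel, had 6.64 log2 in DKO, 6.32 in Fancd2KO and 5.92 in Foxo3aKO, against 6.61 in WT. For Icam4 and Aqp1, DKO was 0.01 and 0.02 log2 above WT and Foxo3aKO was the low array, by 0.61 and 0.69. Slc4a1, the chloride and bicarbonate exchanger, ran from 7.22 log2 in Fancd2KO to 7.79 in WT, with DKO at 7.71.

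Of the 3 membrane skeleton genes, Ank1 and Sptb spanned 0.85 and 0.77 log2 over the arrays, and Epb42 spanned 0.12. Sptb, the erythroid beta-spectrin, had 6.18 log2 in DKO, 5.66 in Fancd2KO and 5.40 in Foxo3aKO, against 6.00 in WT. Ank1, the ankyrin that ties spectrin to the membrane, was the member with 2 probe sets of its own, and they disagreed. For DKO minus WT the brighter gave 0.54 log2 and the dimmer -0.11, and for Foxo3aKO minus WT they gave 0.27 and -0.41. Epb42, a membrane skeleton protein, lay under the median of all gene values on every array. In all, 25 of the 28 members had a mean at or above that median, as had 11068 of all 22180 genes.

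The design also gives each loss on separate pairs of arrays, once with the other gene present and once with it absent. Loss of Fancd2 went with a median log2 difference of the members of 0.48 where Foxo3a was absent (DKO minus Foxo3aKO) and of -0.30 where Foxo3a was present (Fancd2KO minus WT). Of the 28 members, 21 (75%) were lower with Foxo3a present and higher with it absent, against 28% of all genes, and 0 showed the opposite order. Loss of Foxo3a went with a median of 0.35 where Fancd2 was absent (DKO minus Fancd2KO) and of -0.43 where Fancd2 was present (Foxo3aKO minus WT). Here 19 members (67.9%) were lower with Fancd2 present and higher with it absent, against 26.6% of all genes, and 1 showed the opposite order, which was Tfrc. Members with the same sign in both pairs numbered 7 of 28 for Fancd2 loss (49.0% of all genes) and 8 of 28 for Foxo3a loss (49.9%). Both accounts use the same 4 arrays and are therefore not independent of each other.

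**Figure D2:**
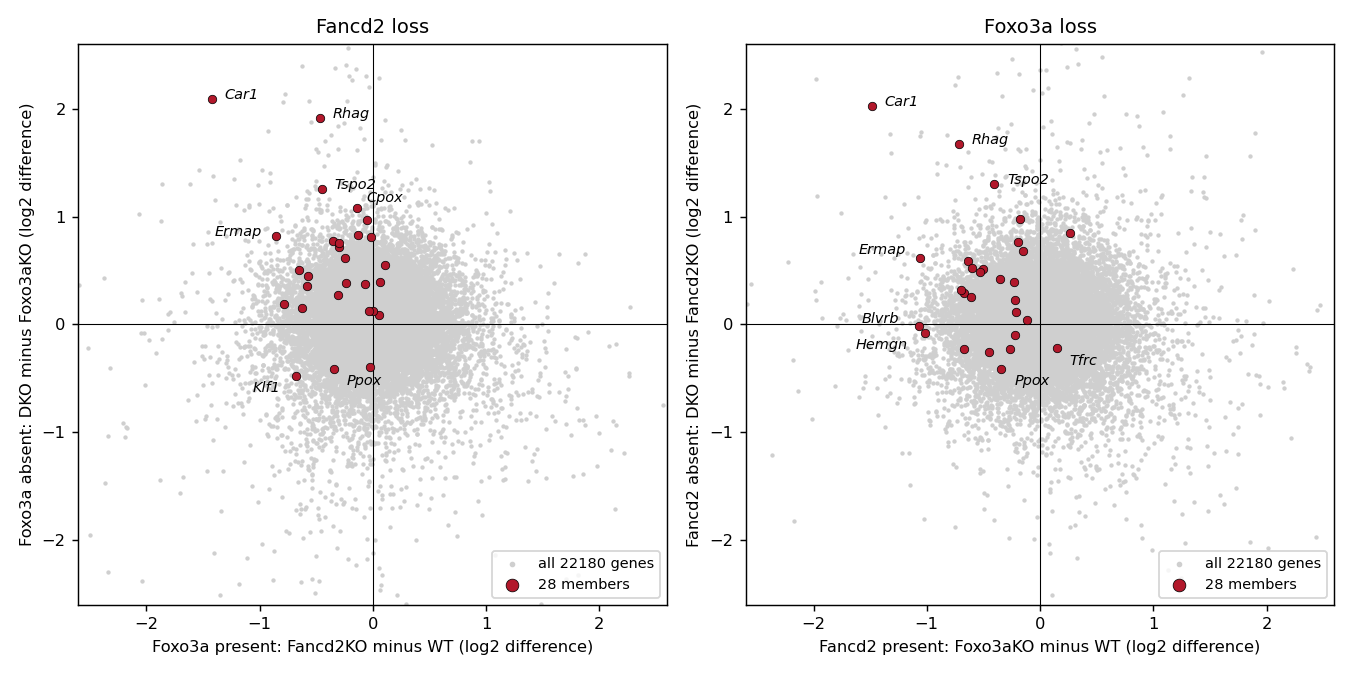
Log2 difference for loss of Fancd2 (left) and of Foxo3a (right), with the other gene present on the horizontal axis and absent on the vertical axis, for the 28 members (red) and all 22180 genes (grey). Each panel leaves out 44 genes beyond 2.6 log2, none of them a member. Members gather at the upper left, led by Car1, Rhag, Tspo2 and Ermap, and Klf1 and Ppox lie below the horizontal line in both panels.

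The departure of DKO from additivity puts this in 1 value per gene, the DKO signal minus the additive expectation (Fancd2KO plus Foxo3aKO minus WT). The median departure was 0.90 log2 over the 28 members and 0.03 over all genes. Of the members, 11 departed upwards by at least 2-fold (3.02% of all genes) and 19 by at least 1.5-fold (11.7%), and 0 departed downwards by at least 1.5-fold (10.1%). Car1 departed by 3.51 log2 and ranked 11 of 22180 genes, counted from the highest. Rhag followed at 2.38 (rank 47), Tspo2 at 1.70 (rank 125) and Ermap at 1.67 (rank 131). The other members past 2-fold were Cpox (1.22), Kel (1.16), Sptb (1.12), Blvrb (1.05), Slc4a1 (1.02), Gata1 (1.02) and Aqp1 (1.01). Probe sets of a gene disagreed in this value by under 1.39 log2 in 95% of genes with a pair, a technical scale within which these further members lay. With dim signals raised to 5.51, 9 members passed 2-fold (1.74% of all genes), and Kel (0.63) and Tspo2 (0.11) did not. The least departures were those of Tfrc (-0.37), Ppox (-0.07), Alad (0.04), Uros (0.12), Epb42 (0.15) and Klf1 (0.20).

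**Figure D3:**
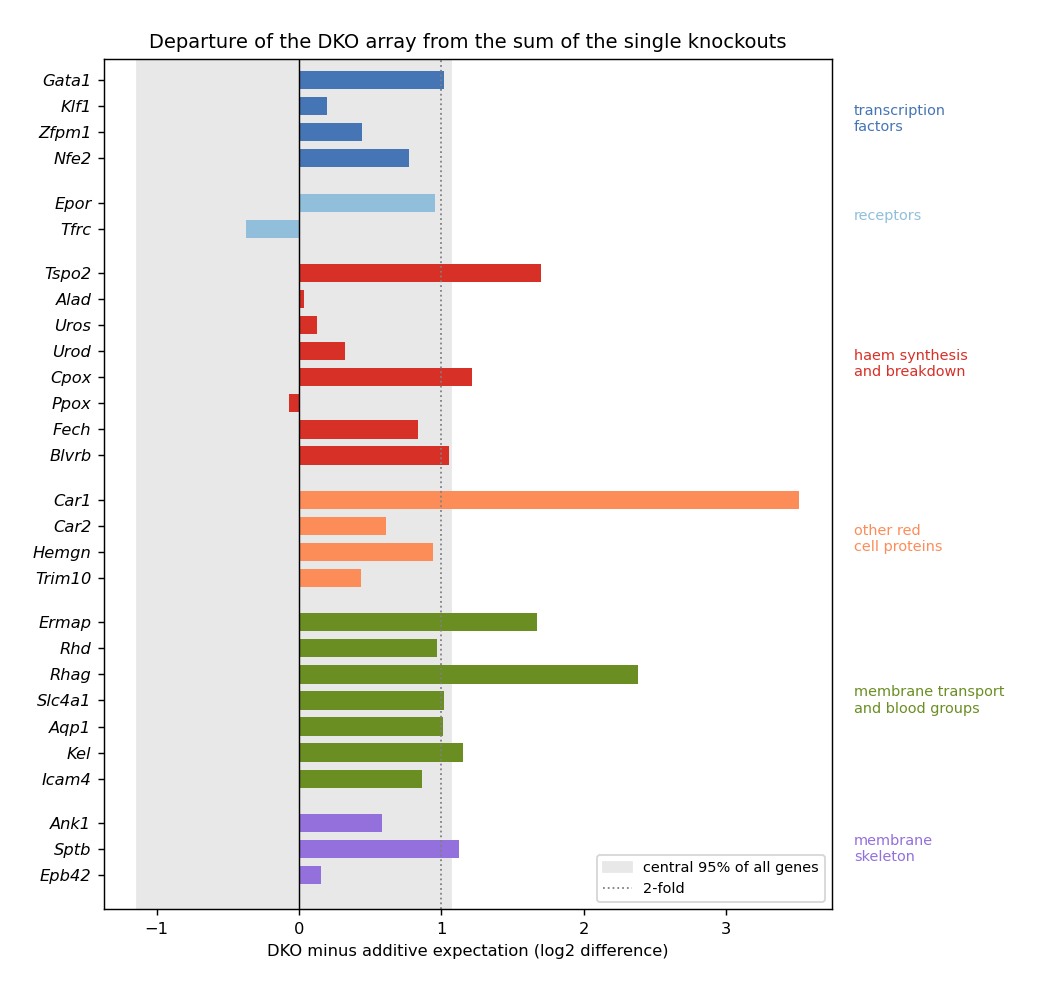
Departure of the DKO signal from the additive expectation (log2 difference, horizontal axis) for each of the 28 measured genes, coloured by role, from 1 array per genotype. The grey band holds the central 95% of all genes, from -1.14 to 1.07, and the dotted line marks 2-fold. Bars of 26 genes point to higher DKO signal, and those of Tfrc and Ppox point to lower.

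Other genes of the pathway, listed by role with earlier results of these data known, gave smaller median departures from additivity than the members, from -0.10 to 0.46 log2 over 6 lists. Of 12 further measured genes of haem synthesis, transport and breakdown, 0 were 2-fold apart from WT in Fancd2KO (median 0.13) or Foxo3aKO (median 0.13). In DKO, 1 was at least 2-fold higher than in WT (0.987% of all genes), with a list median of 0.19. It was Hmox1, the haem oxygenase that breaks haem down, with 8.87 log2 in DKO, 7.87 in Fancd2KO and 7.62 in Foxo3aKO, against 7.63 in WT. Of 16 iron genes, 4 departed from additivity by at least 2-fold upwards (3.02% of all genes) and 0 downwards (3.39%), with a list median of 0.02. These were Hfe, a regulator of iron sensing (1.66), the iron exporter gene Slc40a1 (1.32), the iron-responsive aconitase Aco1 (1.24) and the iron importer gene Slc11a2 (1.13). Slc40a1 also had a log2 difference of -1.05 for Fancd2KO minus WT. Hmox1 and Slc40a1 are known for high expression in iron-recycling macrophages, whose lineage markers are given further on. Hmox1 was highest in DKO, and Slc40a1 was highest in WT (7.43 log2, with 7.04 in DKO). The part of such cells in these differences was not tested.

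Partners of GATA1 in early progenitors, 19 measured, had median log2 differences from WT of -0.12 in DKO, -0.19 in Fancd2KO and -0.29 in Foxo3aKO, and 0 were 2-fold apart from WT on any array. Of them, 3 departed from additivity upwards by at least 2-fold (3.02% of all genes) and 0 downwards (3.39%). These were Gfi1b (1.22), Gata2 (1.14) and Lyl1 (1.09). Gfi1b encodes a transcriptional repressor used in the erythroid and megakaryocytic lineages. Gata2 is the GATA factor of stem and progenitor cells, and Lyl1 is a relative of Tal1. All 3 were lowest in Foxo3aKO, where Gata2 had 8.20 log2, with 9.17 in DKO and 8.96 in Fancd2KO, against 9.13 in WT. Of 12 measured genes of erythropoietin signalling, 2 departed downwards by at least 2-fold (3.39% of all genes) and 0 upwards (3.02%). The 2 were Socs3 (-3.60) and Socs2 (-1.22), feedback inhibitors of cytokine receptors. Socs3 had 5.50 log2 in DKO, 7.85 in Fancd2KO and 6.22 in Foxo3aKO, against 4.97 in WT, and its departure was -2.03 with the mean of its probe sets. Both inhibitors also answer other cytokines. Of 24 further genes of the red cell membrane and its enzymes, 2 departed upwards by at least 2-fold (3.02% of all genes) and 0 downwards (3.39%). Their list median was 0.27. Cldn13, a claudin found in mouse erythroid cells, departed by 1.76, with 6.86 log2 in DKO, 6.05 in Fancd2KO and 5.60 in Foxo3aKO, against 6.56 in WT, and Cd36, a fatty acid receptor, departed by 1.05. Cd36 departed by 0.15 with dim signals raised to 5.51. Sphk1, the sphingosine kinase, was 1.15 log2 higher in DKO than in WT and 0.10 with dim signals raised. Iba57, an iron-sulphur cluster assembly factor, departed by -1.002 and lay under 5.51 on every array.

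Adult globin signal gave mixed departures. Its probe sets listed several genes each, so none was assigned to a single gene. The brightest for beta-globin ran from 12.37 log2 in WT to 12.59 in DKO, and for alpha-globin from 11.59 in WT to 12.18 in DKO. The others ran from 6.16 to 11.03 log2. The source of this signal was not tested. Across 3 probe sets of adult beta-globin genes, DKO minus WT ran from 0.16 to 0.89 log2, Fancd2KO minus WT from -0.19 to 0.82 and Foxo3aKO minus WT from -0.12 to 0.76. Across 2 probe sets of adult alpha-globin genes, these ranges were 0.59 to 0.87, 0.17 to 0.44 and 0.06 to 0.58. The departure from additivity of these 5 probe sets ran from -0.69 to 0.47 log2. Of 5 measured globin genes with a probe set of their own, Hbq1b, an alpha-like theta globin, reached 5.51 log2 on an array, and it had 6.06 in DKO, 4.81 in Fancd2KO and 5.24 in Foxo3aKO, against 5.29 in WT.

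Markers of other blood cells differed between the arrays beside the erythroid genes. Monocyte and macrophage markers, 10 measured, had a median signal of 8.11 log2 in DKO, 6.74 in Fancd2KO and 8.08 in Foxo3aKO, against 7.35 in WT. Of these 10, 6 were at least 2-fold higher in DKO than in WT (0.987% of all genes) and 1 at least 2-fold lower (1.18%). Their summed log2 signal was 82.1 in DKO, 70.7 in Fancd2KO, 79.6 in Foxo3aKO and 75.8 in WT. Their median departure from additivity was 0.75, with 5 of 10 at least 2-fold upwards (3.02% of all genes) and 1 downwards (3.39%). The 5 included Adgre1 (2.70), the F4/80 antigen of macrophages, Spic (2.31), a factor of iron-recycling macrophages, and Csf1r (2.08), the receptor of a macrophage growth factor. The 1 downwards was F13a1 (-1.91), and Ccr2 (-0.44) and Ly6c2 (-0.22) also departed downwards. Against WT, 6 of the 10 were higher in DKO and 4 were lower. Spic was lowest in Foxo3aKO, with 6.38 log2 in DKO, 5.72 in Fancd2KO and 5.08 in Foxo3aKO, against 6.74 in WT. Markers of mast cells, basophils and eosinophils, 12 measured, summed to 73.4 in DKO, 75.4 in Fancd2KO, 86.4 in Foxo3aKO and 88.4 in WT. This list was lowest in DKO, where the erythroid sum was highest (196.9, against 194.8 in WT). Both sums were lower on each single knockout array than on WT. Neutrophil markers, 15 measured, summed to 159.2 in DKO, 159.2 in Fancd2KO, 169.6 in Foxo3aKO and 163.5 in WT. Their median departure from additivity was -0.40, with 13 of the 15 below 0 (46.8% of all genes). Megakaryocyte and platelet markers, the lineage closest to the erythroid one, had 11 measured genes with a median departure from additivity of 0.16. Their median differences from WT were -0.15 in DKO, -0.03 in Fancd2KO and -0.42 in Foxo3aKO, the last near the -0.43 of the erythroid members. In Foxo3aKO, 8 of the 11 were below WT (51% of all genes). Of these 11, 2 departed at least 2-fold upwards (3.02% of all genes) and 2 downwards (3.39%). Multipotent progenitor markers, 5 measured, had median differences from WT of -1.30 in DKO, -0.88 in Fancd2KO and -1.12 in Foxo3aKO. Their median departure from additivity was 0.93, against 0.90 for the erythroid and haem synthesis members. B cell markers, 8 measured, had median differences from WT of -0.51 in DKO, -0.10 in Fancd2KO and -0.41 in Foxo3aKO, and 8 T and NK cell markers had 0.13 in DKO, 0.05 in Fancd2KO and 0.21 in Foxo3aKO. The part of any of these cell types in the erythroid differences was not tested.

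**Figure D4:**
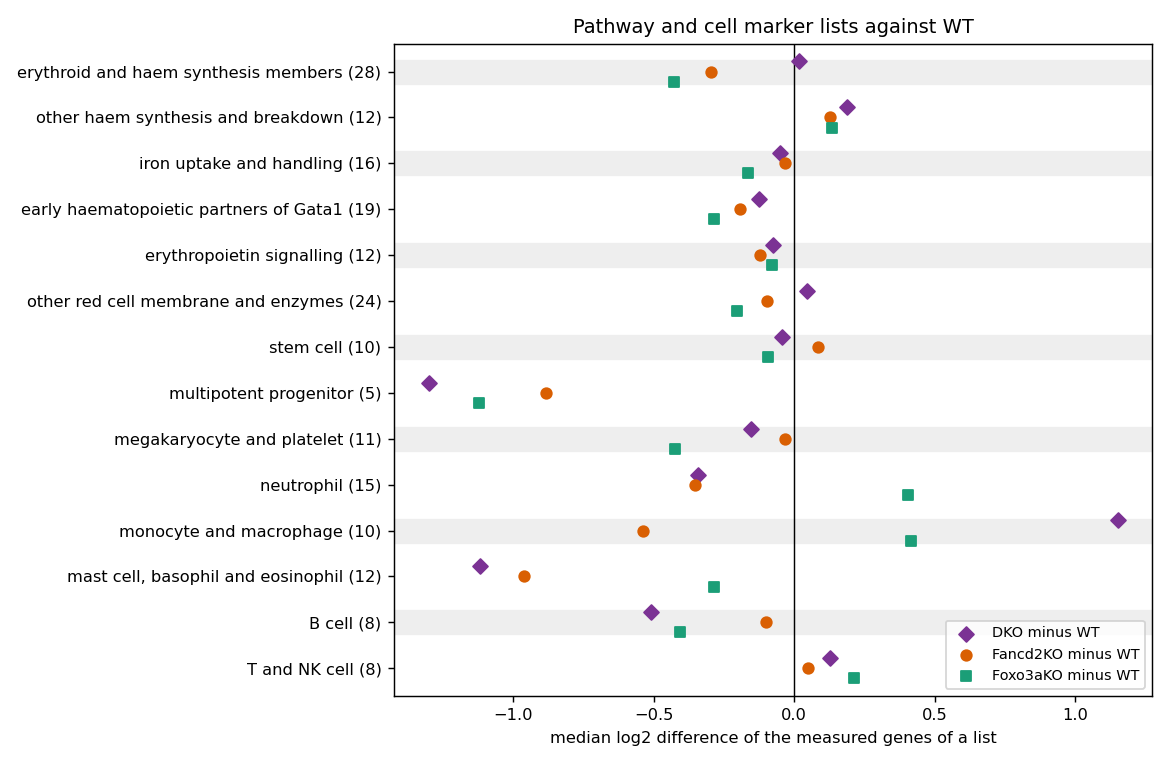
Median log2 difference from WT (horizontal axis) for DKO (diamond), Fancd2KO (circle) and Foxo3aKO (square) over the measured genes of each list. The number of genes is in brackets, and the globin list is not shown. The erythroid and haem synthesis members have DKO at 0.02, with Fancd2KO below it and Foxo3aKO lowest. The lists of early GATA1 partners and of other red cell membrane genes and enzymes show the same order. The monocyte list also has DKO above both single knockouts, with Fancd2KO lowest. The lists of other haem genes and of erythropoietin signalling share that order over a far narrower span. The mast cell, progenitor and B cell lists have DKO lowest. The 3 differences of a list share the WT array.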

How the data were processed

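The authors deposited log2 expression values of 41345 probe sets, 1 column per array, per the range of the deposited values. Affymetrix Expression Console was used, per the submitters' processing notes. Neither its version nor the method of summarisation, normalisation or filtering is given in the sources used here. Names of probe sets came from the platform annotation: 23521 had 1 symbol, 1814 had several and 16010 had none listed. Entrez identifiers of 23328 of the first kind were found in the RefSeq table of assembly GRCm38.p6, with 0 symbols differing. A difference is relative to the whole signal of its arrays. Probe sets with several symbols or none were left out, except for the globin families.

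Differences were taken on the log2 scale for 6 comparisons, with Python 3.11.15, and the counting was tested on simulated data. No filter on dim genes was applied, so that no member was kept for the array on which it was high. The median of all gene values, 5.51 log2, served as a floor in alternatives. There was no test, because each genotype had 1 array, and the number of arrays limits the precision. Alternatives were quantile normalisation, centring on array medians, the mean of all probe sets, dim genes left out, dim signals raised to the floor and a 1.5-fold threshold. All 30 members were named. From 6 pathway lists, genes at least 2-fold apart in any comparison were named. Signals of 8 marker lists were summarised. The members and lists were chosen with earlier results of these data known.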

Additional observations from a re-analysis of the deposited data

Results flagged for a closer look

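Some genes differed in opposite directions, each by at least 1.5-fold, for the same loss with the other gene absent and present. The difference between the pairs was not tested, since each pair holds 1 array per genotype. Of the members, 4 of 28 did so for Foxo3a loss (1.41% of all genes) and 2 of 28 for Fancd2 loss (1.30% of all genes). Car1 had log2 differences for Fancd2 loss of 2.09 with Foxo3a absent and -1.42 with it present, and for Foxo3a loss of 2.03 with Fancd2 absent and -1.49 with it present, a gap of 3.51 in both. Ermap had 0.82 and -0.85 for Fancd2 loss and 0.61 and -1.06 for Foxo3a loss, a gap of 1.67 in both. Rhag had 1.67 and -0.71 for Foxo3a loss, a gap of 2.38. Cpox had 0.59 and -0.63 for Foxo3a loss, a gap of 1.22.

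Of the other genes named, Cldn13 had 0.80 and -0.96 for Foxo3a loss, a gap of 1.76. Slc40a1 had 0.66 and -0.66 for Foxo3a loss, a gap of 1.32. Hfe had 0.74 and -0.92 for Fancd2 loss, a gap of 1.66, and its difference with Foxo3a present was -0.33 with dim signals raised to the floor. Socs3 went the other way, with -0.72 and 2.88 for Fancd2 loss and -2.35 and 1.25 for Foxo3a loss, a gap of -3.60 in both. With the mean of its probe sets, its difference from WT was 1.75 in Fancd2KO and 0.67 in Foxo3aKO, DKO minus Fancd2KO was -1.36 and the gap was -2.03.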

How the results depend on the processing

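No paired analysis was possible because each genotype had 1 array and no test was made. Under quantile normalisation, centring of arrays, the mean of all probe sets, dim genes left out and dim signals raised to the floor, counts of members at least 2-fold apart stayed within 1.5 times of those reported in each of the 6 comparisons, as did the counts of members with the same sign in both backgrounds. At 1.5-fold in place of 2-fold the counts were 8 in DKO, 6 in Fancd2KO and 11 in Foxo3aKO against WT, 9 in DKO against Fancd2KO, 12 in DKO against Foxo3aKO and 19 against the additive expectation, and a lower threshold raises counts by construction. The median difference of the members for DKO minus WT, 0.02, changed sign to -0.0129 with each array centred on its median, so it has no settled direction. The median departure from additivity was 0.80 with dim signals raised to the floor, which shrinks dim differences by construction, and ran from 0.90 to 0.94 in the other alternatives. For single members, 163 of 168 differences moved by less than the SD of probe set disagreement with dim signals raised, and the 5 that moved more were 4 of Tspo2 and 1 of Kel. No replicate array exists to show how far any of these values would repeat.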
